A study of Mus musculus with 20 samples.

Results

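The genes described here form a signalling chain of phagocytes, from receptors for antibody to the enzymes that act inside the cell. They are Fcer1g, Tyrobp, Fcgr1, Fcgr3, Fcgr2b, Trem2, Syk and Plcg2, chosen by name as 8 of the 45705 genes in the table, and all 8 were found and passed the filter on low values. The values are RPKM (read numbers divided by gene length and by sequencing depth). Comparisons between libraries are approximate, since the RPKM of all genes summed to 955067 in GRP2/MP3 2 and to 2407640 in BNAP/GRP1 2. Comparisons between genes are approximate as well. There were 20 libraries, 1 for each of 5 sorted populations (GRP2/MP3, BNAP/GRP1, PFMP, GRP3 and NSC) in each of 4 batches, and the number after a population's name is its batch (NSC 3 belongs to batch 3). All came from the periventricular tissue of Swiss Webster pups at postnatal day 5, litters pooled without regard to sex, with no transgene and no treatment. Dissociated cells were sorted on 4 surface antigens. NSCs (neural stem cells) were CD133+ LeX+ NG2- CD140a-. BNAP/GRP1 (bipotential neuronal-astrocytic and glial-restricted progenitors) were NG2+ CD140a- LeX+ CD133-, and GRP2/MP3 (a glial-restricted and a multipotential progenitor) had the same gate without LeX. GRP3 were NG2+ CD140a+ LeX- CD133-, and PFMP (progenitors that respond to PDGF and FGF) were NG2+ CD140a+ LeX+ CD133-. The gates hold no antigen that would remove microglia, and a population defined by surface antigens may hold more than 1 cell type.

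Fc receptors bind the constant part of antibodies, and in the brain they are carried mainly by microglia and by the macrophages at its borders. FCGR1 and FCGR3 activate the cell through the shared chain FCER1G, TREM2 and related receptors do so through the chain TYROBP (DAP12), and each of these chains carries an immunoreceptor tyrosine-based activation motif (ITAM). Once its tyrosines are phosphorylated, the ITAM holds the kinase SYK, which activates phospholipase C gamma 2 (PLCG2), while FCGR2B carries an inhibitory motif (ITIM) and restrains the same pathway. The study describes data on the function of Syk in neural stem cells and progenitors as limited.

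The sequences that give the chain its direction are short. A search of the coding sequence of 1 principal transcript per member (GENCODE vM21, GRCm38) found an ITAM, 2 tyrosine codons each followed by a leucine or isoleucine codon 3 positions on, in Tyrobp and Fcer1g and in none of the other 6. The looser ITIM pattern matched once in Fcgr2b, 3 times in Fcgr1, 2 times in Plcg2 and once each in Fcer1g and Tyrobp, and of these Fcgr2b is the receptor known to use it. The ITAMs and the Fcgr2b match are printed 5′ to 3′ on the coding strand, with the tyrosine codons in capitals.
Tyrobp ITAM: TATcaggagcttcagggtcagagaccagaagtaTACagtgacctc
Fcer1g ITAM: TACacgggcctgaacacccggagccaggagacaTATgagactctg
Fcgr2b ITIM: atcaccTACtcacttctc
The Tyrobp motif is spliced from exons 4 and 5 of 5 (chr7:30415670-30417382, plus strand, codons 92 to 106). The Fcer1g motif is spliced from exons 4 and 5 of 5 as well (chr1:171229889-171230072, minus strand, codons 65 to 79). The Fcgr2b motif lies in exon 8 of 8 (chr1:170961071-170961088, minus strand, codons 317 to 322). Fcgr2b (chr1:170958617-170976547), Fcgr3 (chr1:171051174-171064935) and Fcer1g (chr1:171229572-171234365) are neighbours on the minus strand of chromosome 1. Fcgr1 lies at chr3:96282909-96293969, Tyrobp at chr7:30413760-30417585, Plcg2 at chr8:117498291-117635142, Syk at chr13:52583173-52648792 and Trem2 at chr17:48346401-48354147. Fcgr2b and Fcgr3 are similar in their extracellular parts, and how reads shared by them were divided is not given in the sources used here.

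The depth of a library relative to BNAP/GRP1 1 was estimated from the steps between low values, and the read totals themselves are unknown. It was lowest in BNAP/GRP1 4, at 0.0395 (read from 347 genes), and highest in BNAP/GRP1 3, at 1.41 (97 genes). BNAP/GRP1 4 nevertheless held 38191 genes above 0, against 31999 in BNAP/GRP1 1. In BNAP/GRP1 4 genes of unrelated cell types stood at the level of the members. Scgb1a1 of lung epithelium was at 13.6 RPKM, Tpsb2 of mast cells at 14.1 and Ltf of neutrophils at 41.6. The members were at 2.90 (Plcg2) to 27.1 RPKM (Trem2) there. The 5 libraries of batch 3 stood apart from the other 15. In batch 3 the 10 alveolar macrophage markers summed to 1511 to 1745 RPKM and the 8 lung epithelium markers to 983 to 1115, against at most 141 and 88.0 in any other library. The 8 NSC and ependymal markers summed to 101 RPKM in NSC 3, against 1083 to 1179 in NSC 1, 2 and 4, and to 9.85 to 14.3 in the other 4 libraries of batch 3. The 8 markers of oligodendrocyte progenitors (OPC) summed to 15.05 in GRP3 3 and 15.7 in PFMP 3, against 785 to 3638 in the other GRP3 libraries and 372 to 2511 in the other PFMP libraries, and to 2.72 to 3.59 in the other 3 libraries of batch 3. Both lists were thus far lower in these populations in batch 3 than in the other batches, although within batch 3 the first was still highest in NSC and the second in GRP3 and PFMP. Cspg4, which encodes the sorted antigen NG2, was at 0.0362 to 0.398 RPKM in batch 3. In batches 1, 2 and 4 Cspg4 reached 11.7 to 93.2 in GRP3 and 4.70 to 146 in PFMP, but only 0.249 to 8.49 in BNAP/GRP1 and 5.91 to 9.64 in GRP2/MP3. Each result below is given with batch 3 and, where it matters, without it.

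The 2 ITAM chains were the highest of the members in every library of batches 1 to 3, and in batches 1 and 2 both stood high in BNAP/GRP1 and GRP2/MP3 and low in the other populations. Tyrobp, the partner chain of TREM2, was at 9.17, 7.51 and 6.24 RPKM in NSC 1, 2 and 4, 3.82, 4.55 and 3.70 in GRP3, and 4.18, 7.50 and 12.1 in PFMP. In the same batches Tyrobp was at 2189, 1399 and 16.0 RPKM in BNAP/GRP1 and 6797, 881 and 64.7 in GRP2/MP3. The 6 libraries of these 2 populations all lay above the 9 of the other 3 populations, although BNAP/GRP1 4 did so narrowly. The share of all genes with this split was not counted, for Tyrobp or for the members below. Shares for parts of the split are given further on. In batch 3 Tyrobp was at 1436 RPKM in BNAP/GRP1, 1464 in GRP2/MP3, 1406 in PFMP, 1375 in GRP3 and 1320.3 in NSC, so that the populations could not be told apart. Fcer1g, the chain of the Fc receptors, was at 10.5, 6.90 and 75.2 RPKM in NSC 1, 2 and 4, 5.51, 5.33 and 15.6 in GRP3, and 3.68, 10.1 and 40.2 in PFMP. Fcer1g was at 2464, 2285 and 25.4 RPKM in BNAP/GRP1 and 6018, 738 and 303 in GRP2/MP3 of these batches. GRP2/MP3 lay above every NSC, GRP3 and PFMP library of batches 1, 2 and 4, whereas BNAP/GRP1 4 fell below NSC 4 and PFMP 4. In batch 3 Fcer1g stood between 944 and 1043 RPKM in all 5 populations.

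Of the activating Fc receptors, Fcgr3 followed Tyrobp most closely and Fcgr1 was far lower. Fcgr3, a low-affinity receptor for IgG, was at 3.21, 2.77 and 2.99 RPKM in NSC 1, 2 and 4, 2.18, 2.08 and 3.71 in GRP3, and 1.27, 2.23 and 8.86 in PFMP. It was at 663, 129 and 21.0 RPKM in BNAP/GRP1 and 562, 384 and 60.5 in GRP2/MP3, all 6 above the 9 others. In batch 3 Fcgr3 stood between 448 and 509 RPKM. Fcgr1, the high-affinity IgG receptor, was below 1 RPKM in every NSC, GRP3 and PFMP library of batches 1 and 2, at 0.166 to 0.511. Batch 4 broke that pattern, with Fcgr1 at 14.7 RPKM in NSC, 3.02 in GRP3, 0.914 in PFMP, 6.48 in BNAP/GRP1 and 5.07 in GRP2/MP3. Fcgr1 was at 48.1 and 30.2 RPKM in BNAP/GRP1 1 and 2 and 43.4 and 36.8 in GRP2/MP3 1 and 2, above the 20.7 to 22.6 of batch 3. Fcgr1 was the only member for which these 4 libraries lay above BNAP/GRP1 3 and GRP2/MP3 3, against 28.1% of all genes tested.

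The inhibitory receptor Fcgr2b had another pattern, with its peak in batch 3. Fcgr2b was at 0.0646, 0.0275 and 19.1 RPKM in NSC 1, 2 and 4, 0.177, 0.0781 and 2.98 in GRP3, and 0.384, 0.927 and 3.91 in PFMP. It was at 16.9, 6.42 and 16.3 RPKM in BNAP/GRP1 and 16.7, 7.00 and 10.5 in GRP2/MP3. These 6 lay above GRP3 and PFMP but not above NSC 4. In batch 3 Fcgr2b was at 181 RPKM in BNAP/GRP1, 163 in GRP2/MP3, 171 in PFMP, 162 in GRP3 and 147 in NSC, above all 15 other libraries.

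Trem2, the lipid and lipoprotein receptor of microglia, was at 0.756, 0.407 and 14.9 RPKM in NSC 1, 2 and 4, 0.886, 0.346 and 3.13 in GRP3, and 0.126, 0.576 and 3.96 in PFMP. It was at 247, 116 and 27.1 RPKM in BNAP/GRP1 and 392, 80.6 and 36.2 in GRP2/MP3. All 6 lay above the 9 libraries of the other populations, and batch 3 stood between 275 and 334 RPKM. Syk and Plcg2, the kinase and the lipase at the end of the chain, were among the lowest members in BNAP/GRP1 and GRP2/MP3 of batches 1 and 2. Syk was at 6.44, 1.51 and 15.5 RPKM in BNAP/GRP1 1, 2 and 4 and 7.17, 7.07 and 1.21 in GRP2/MP3. In the same batches Syk was at 0.387, 0.355 and 2.03 RPKM in NSC, 0.899, 0.630 and 2.42 in GRP3, and 0.582, 0.369 and 0.193 in PFMP. The groups overlapped, since GRP2/MP3 4 was below NSC 4 and GRP3 4. Plcg2 was at 4.50, 1.99 and 2.90 RPKM in BNAP/GRP1 and 4.01, 4.25 and 3.30 in GRP2/MP3, against 0.260, 0.306 and 0.554 in NSC, 0.163, 0.0847 and 0.436 in GRP3 and 0.0463, 0 and 1.02 in PFMP. Here the groups did not overlap. In batch 3 Syk stood between 54.9 and 65.6 RPKM and Plcg2 between 14.0 and 15.9, both above all 15 other libraries.

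**Figure D1:**
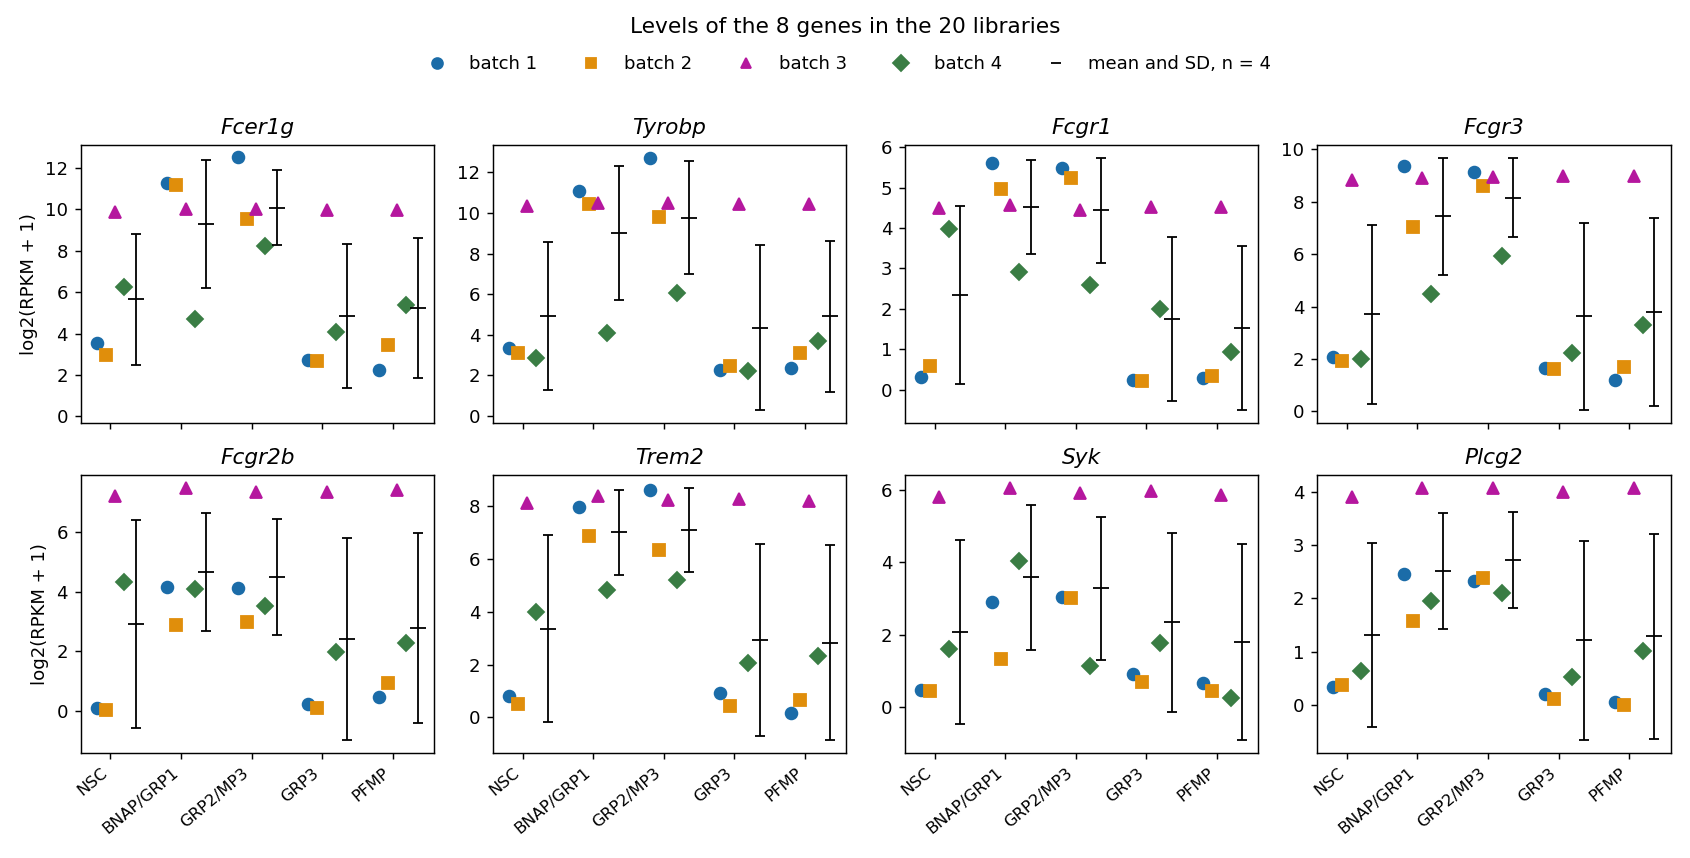
Level of each of the 8 genes, as log2(RPKM + 1), in the 5 populations, with 1 point per library, shape and color by batch, and the mean and SD of 4 libraries in black. BNAP/GRP1 and GRP2/MP3 stand above the other populations in batches 1 and 2, and the 5 triangles of batch 3 lie at nearly 1 level in every panel, for Tyrobp between 1320.3 and 1464 RPKM.

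In the order of the population means, GRP2/MP3 and BNAP/GRP1 came first for every member. For Tyrobp the mean log2(RPKM + 1) was 9.77 ± 2.78 in GRP2/MP3 (SD, n = 4), 9.03 ± 3.31 in BNAP/GRP1, 4.91 ± 3.64 in NSC, 4.91 ± 3.74 in PFMP and 4.35 ± 4.05 in GRP3. For Fcer1g it was 10.09 in GRP2/MP3, 9.29 in BNAP/GRP1, 5.66 in NSC, 5.25 in PFMP and 4.84 in GRP3, with SDs of 1.81 to 3.47 (n = 4). The step from BNAP/GRP1 to NSC was about as large as the SDs on either side of it, and the other steps were smaller, so that no neighbours in these orders differed clearly beyond their spread. In bulk libraries like these, fewer cells of a type and less RNA per cell cannot be told apart.

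The first question of the design is how each progenitor differed from NSC. No member was called in any of the 4 comparisons at an adjusted p under 0.05 (limma over 27614 genes, all 20 libraries, no batch term), where the share of all genes called higher was 0% for GRP2/MP3 and for BNAP/GRP1, 0.00362% for PFMP and 0.0109% for GRP3. The 4 comparisons share the same NSC libraries. At an unadjusted p under 0.05, 3 members were higher in GRP2/MP3 (0.873% of all genes) and 0 in BNAP/GRP1 (1.87%), GRP3 (1.26%) and PFMP (0.793%). In GRP2/MP3 the log2 fold change of Tyrobp was 4.85 ± 2.18 (SE, n = 4 in each population; limma adjusted p = 0.754), that of Fcgr3 was 4.46 ± 1.85 (adjusted p = 0.602) and that of Fcer1g was 4.43 ± 1.89 (adjusted p = 0.659). These 3 are the members with the unadjusted p under 0.05. The other members were 1.20 to 3.75 higher in GRP2/MP3 on this scale, Trem2 the most and Syk the least. In BNAP/GRP1 the members ran from 1.20 ± 1.04 for Plcg2 to 4.12 ± 2.18 for Tyrobp, with limma adjusted p of 0.856 to 0.866. In GRP3 and PFMP they ran from -0.82 to 0.26, with SEs of 1.04 to 2.18. The median over the 8 members was 2.92 in GRP2/MP3, 2.90 in BNAP/GRP1, -0.20 in PFMP and -0.46 in GRP3, against -0.08, 0.38, -0.20 and 0.05 over all genes tested. Log2 fold changes are on the scale of log2(RPKM + 1) and understate changes of low genes.

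Batch 3 and BNAP/GRP1 4 moved these values. Without the 5 libraries of batch 3, 3 members rose in GRP2/MP3 against NSC, with 0.334% of the 26663 genes tested called higher: Fcgr3 by 5.89 ± 1.04 (limma adjusted p = 0.00537), Trem2 by 4.96 ± 1.08 (adjusted p = 0.0230) and Tyrobp by 6.42 ± 1.57 (adjusted p = 0.0447). In BNAP/GRP1, 2 members then rose (0.143% of genes called higher), Fcgr3 by 4.96 ± 1.04 (limma adjusted p = 0.0235) and Trem2 by 4.78 ± 1.08 (adjusted p = 0.0367). No member was called in GRP3 (0.356% of genes) or PFMP (0.233%) without batch 3, and 0 had an unadjusted p under 0.05 by limma. With the batch as a block and all 20 libraries, Fcgr3 alone was called in GRP2/MP3 (limma adjusted p = 0.0370, 0.174% of genes called higher) and 0 members in BNAP/GRP1 (0.0652%), GRP3 (0.275%) and PFMP (0.185%). At an unadjusted p under 0.05 that fit gave 8 members in BNAP/GRP1 (7.31% of genes), 7 in GRP2/MP3 (3%) and 0 in GRP3 (4.16%) and PFMP (3.14%). With the block and without batch 3, 4 members were called in GRP2/MP3 (0.585% of genes) and 3 in BNAP/GRP1 (0.308%). With libraries weighted by how well they followed the fit, 5 members were called in BNAP/GRP1 (2.52% of genes), 5 in GRP2/MP3 (1.21%) and 6 in the comparison of both with GRP3 and PFMP (3.82%). Leaving out only BNAP/GRP1 4, the shallowest library by the estimate above, raised Tyrobp in BNAP/GRP1 from 4.12 to 5.76 on the log2 scale. In that fit limma called 0 members (0.00432% of 23132 genes called higher), and 5 had an unadjusted p under 0.05 (1.14%).

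Set against the NSC library of the same batch, the members of BNAP/GRP1 and GRP2/MP3 differed between batches by several log2 units. Tyrobp in GRP2/MP3 was 9.39 above NSC on the log2 scale in batch 1, 6.69 in batch 2, 0.15 in batch 3 and 3.18 in batch 4. In BNAP/GRP1 it was 7.75, 7.36, 0.12 and 1.23 above. The median over the 8 members in BNAP/GRP1 was 6.23, 4.74, 0.15 and 1.03 in batches 1 to 4, and in GRP2/MP3 it was 6.11, 5.25, 0.14 and 1.35. All 8 members were higher than in NSC in batches 1 and 2 of both populations, and 5 of 8 in batch 4 of both. In BNAP/GRP1 4 the median over all genes tested was itself 1.53 above NSC 4, more than the 1.03 of the members. Fcer1g and Fcgr1 were 1.53 and 1.07 lower in BNAP/GRP1 4 than in NSC 4. In GRP3 and PFMP the batch medians of the members ran from -1.29 to 0.12. In batches 1, 2 and 4 all BNAP/GRP1 libraries lay above all NSC libraries for 4 members (Fcgr3, Tyrobp, Trem2 and Plcg2), against 4.96% of genes, and all GRP2/MP3 libraries for these 4 and Fcer1g, against 3.75%. No member of GRP3 (8.81% of genes) or PFMP (4.58%) did so.

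**Figure D2:**
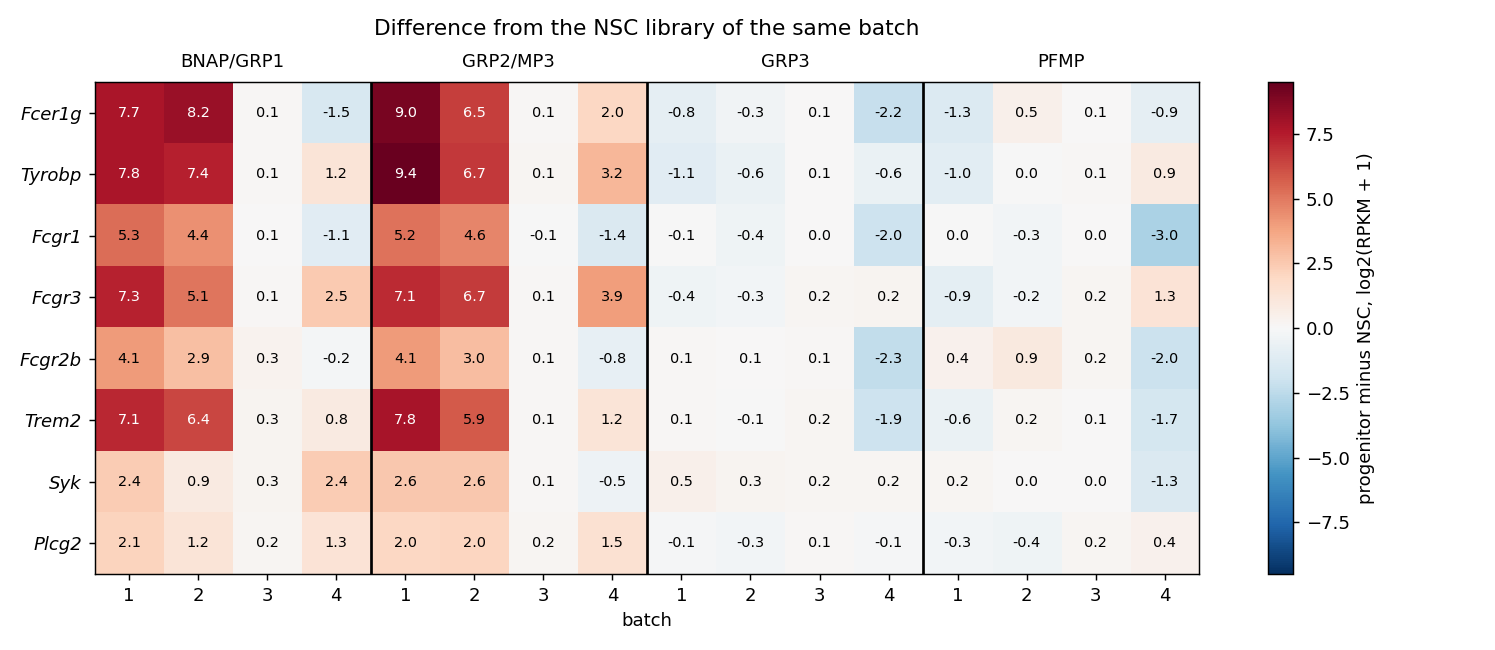
Difference of each progenitor library from the NSC library of the same batch, on the log2(RPKM + 1) scale, for the 8 genes in rows and the 4 batches of each progenitor in columns. The large positive values are in batches 1 and 2 of BNAP/GRP1 and GRP2/MP3, up to 9.39 for Tyrobp, and the batch 3 columns hold values between -0.06 and 0.30.

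The direct comparison of the 2 populations with high levels, BNAP/GRP1 and GRP2/MP3, against the 2 CD140a+ populations, GRP3 and PFMP, uses no NSC library and 8 libraries a side. No member was called with no batch term (0% of all genes called higher by limma), and 5 members had an unadjusted p under 0.05 (2.8% of genes). The log2 fold changes were 4.77 ± 1.54 for Tyrobp (SE), 4.64 ± 1.34 for Fcer1g, 4.18 ± 1.31 for Trem2, 4.09 ± 1.31 for Fcgr3 and 2.84 ± 0.82 for Fcgr1, with limma adjusted p of 0.650 to 0.741. These are the 5 of the unadjusted count. Fcgr2b, Plcg2 and Syk were at 1.98 ± 1.27, 1.37 ± 0.73 and 1.36 ± 1.05. With the batch as a block, 7 of the 8 rose, with 0.999% of all genes called higher. Their limma adjusted p ran from 0.0377 for Tyrobp, Trem2 and Fcgr3 to 0.0473 for Fcgr2b and Plcg2, and Syk was at 0.137. With the block and without batch 3 it was again 7 (2.05% of genes). Without batch 3 and without the block, 6 rose (1.5% of genes called higher), Tyrobp by 6.34 ± 1.11 and Fcer1g by 6.17 ± 1.08, whereas Fcgr2b (adjusted p = 0.0708) and Syk (adjusted p = 0.132) did not pass. In batches 1, 2 and 4 the 6 higher libraries did not overlap the 6 of GRP3 and PFMP for Fcgr1, Fcgr2b, Fcgr3, Tyrobp, Trem2 and Plcg2, 6 of 8 members, against 1.18% of all genes. With batch 3 among them 0 of 8 did (0.0109% of genes). The 6 higher libraries include BNAP/GRP1 4, in which genes of unrelated cell types stood at the level of the members. Between single populations, 0 members were called in each of the 6 direct comparisons by limma without a batch term, where 0% of all genes were called higher. At an unadjusted p under 0.05 there were 4 members in BNAP/GRP1 against GRP3 (1.29% of genes), 3 against PFMP (4.56%), 5 in GRP2/MP3 against GRP3 (0.923%) and 5 against PFMP (1.36%). There were 0 in BNAP/GRP1 against GRP2/MP3 (1.05%) and in GRP3 against PFMP (0.286%). BNAP/GRP1 and GRP2/MP3 differed from each other by -0.80 to 0.30 on the log2 scale with SEs of 1.04 to 2.18, and neither could be placed above the other. With the block and without batch 3, 3 members were called in GRP2/MP3 against GRP3 (0.349% of genes) and 2 against PFMP (0.184%), and with library weights 7 in BNAP/GRP1 against GRP3 (4.75%) and 6 in GRP2/MP3 against GRP3 (3.06%).

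**Figure D3:**
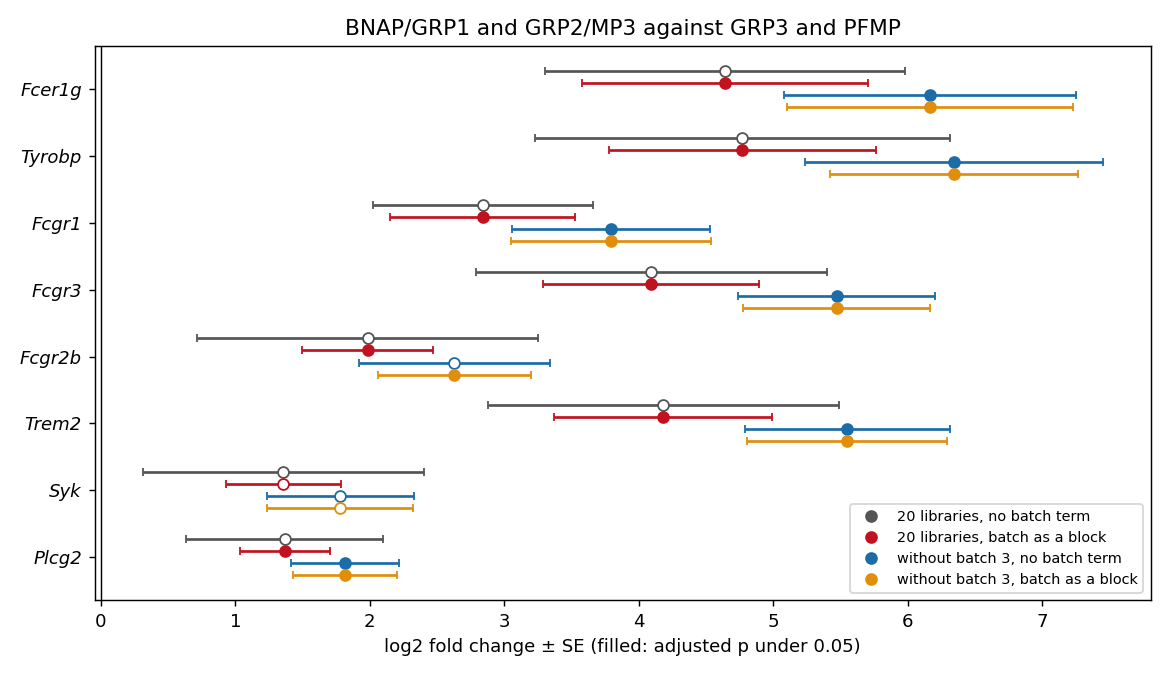
Log2 fold change and SE of each of the 8 genes for BNAP/GRP1 and GRP2/MP3 against GRP3 and PFMP in 4 limma fits, filled where the adjusted p was under 0.05. None of the 8 is filled with 20 libraries and no batch term, 7 are with the block, 6 without batch 3 and 7 with both, and Syk is open in each.

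Batch 3 was compared with the other batches in 1 model with a term for each population and each batch. All 8 members were higher in batch 3 at an adjusted p under 0.05, where limma called 12.5% of all genes higher and 22.6% lower. The 5 libraries belong to 1 batch and resemble each other, so these p-values compare libraries and not batches, of which 1 stands against 3 with no replicate. The largest differences were those of Fcgr2b (5.22 ± 0.50, limma adjusted p = 2.78e-07), Tyrobp (5.14 ± 1.03, adjusted p = 0.000762), Trem2 (4.80 ± 0.84, adjusted p = 0.000222), Fcgr3 (4.78 ± 0.83, adjusted p = 0.000209) and Syk (4.40 ± 0.44, adjusted p = 4.61e-07). Fcer1g was 3.92 ± 1.10 higher, Plcg2 2.95 ± 0.35 and Fcgr1 2.13 ± 0.71 (limma adjusted p = 0.0269). Without GRP3 3 the calls of Fcer1g (adjusted p = 0.0595) and Fcgr1 (adjusted p = 0.114) were lost, and without PFMP 3 or NSC 3 that of Fcgr1 was (adjusted p = 0.102 and 0.0830). Fcgr2b, Syk and Plcg2 lay above all 15 other libraries in all 5 of batch 3, 3 of 8 members against 5.18% of genes. Within NSC, GRP3 and PFMP, batch 3 lay above the other batches for all 8 members (10% of genes), and within BNAP/GRP1 and GRP2/MP3 for the same 3 as over all populations (7.87%). The summed alveolar macrophage and lung epithelium markers were highest in the same 5 libraries, and their part in the result was not tested. Most of the lung sum was Scgb1a1, at 839 to 965 RPKM in batch 3. Sftpa1, Sftpb, Sftpd and Ager were higher in BNAP/GRP1 4, at 9.23, 8.77, 6.75 and 10.9 RPKM, than in any library of batch 3. Of the alveolar list, Car4 was highest in GRP2/MP3 4 (127 RPKM) and Itgax in BNAP/GRP1 1 (35.2). The batch 3 libraries also barely differed among themselves. The highest of the 5 was 1.09 times the lowest for Fcgr1 and 1.23 times for Fcgr2b, with the other members between, and the coefficient of variation was 3.26% to 7.68%. In batch 1 the highest was 18.5 times the lowest for Syk and 3110 times for Trem2.

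The proportions among the members differed too. In batch 3 Fcgr3 stood at 2.67 to 3.07 times Fcgr2b in the 5 libraries, against 20.1 to 54.8 times in BNAP/GRP1 and GRP2/MP3 of batches 1 and 2, so that the inhibitory receptor made up a larger part there. Tyrobp was at 21.9 to 24.8 times Syk in batch 3 and at 125 to 948 times in those 4 libraries. Trem2 was at 0.205 to 0.233 of Tyrobp against 0.0577 to 0.113, and Syk at 3.56 to 4.18 times Plcg2 against 0.761 to 1.79. Only libraries with both genes at 1 RPKM or more were counted. Fcgr3 differed from Fcgr1 as well, at 20.8 to 24.0 times in batch 3 and 4.28 to 13.8 times in the 4 libraries. In BNAP/GRP1 4 and GRP2/MP3 4 Tyrobp was at 1.03 and 53.5 times Syk. Trem2 was at 1.69 and 0.560 of Tyrobp there, and Syk at 5.35 and 0.367 times Plcg2. How often the ratios of other gene pairs part between these libraries was not counted. The ratio of the 2 ITAM chains differed less, with Fcer1g at 0.704 to 0.726 of Tyrobp in batch 3 and 0.838 to 1.63 in the 4 libraries. In batch 4 it was 1.58 to 4.68 in BNAP/GRP1 and GRP2/MP3 and 3.33 to 12.05 in the other 3 populations, and the Fcgr3 to Fcgr2b ratio was 1.29 and 5.78 in the former and 0.157 to 2.26 in the latter.

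**Figure D4:**
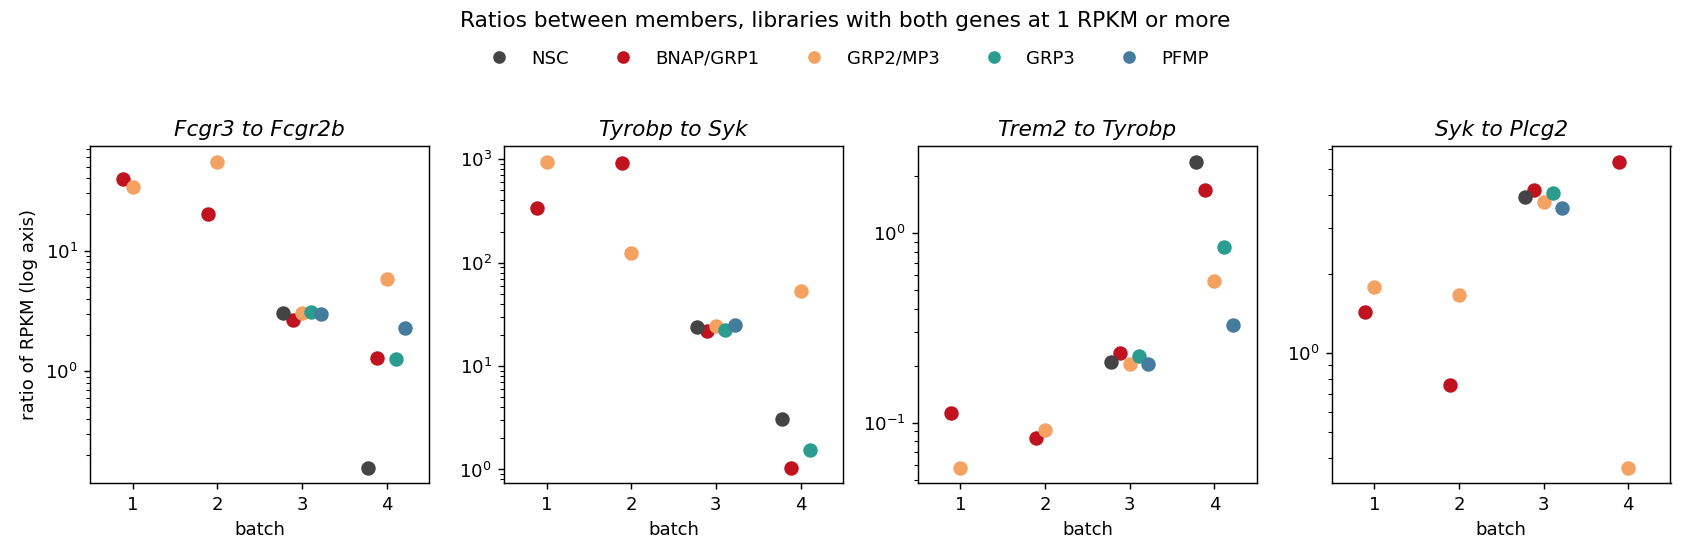
Ratio of the RPKM of 4 pairs of members by batch on a log axis, with 1 point per library in which both genes reached 1 RPKM, colored by population. The 5 points of batch 3 lie together in each panel, at 2.67 to 3.07 for Fcgr3 to Fcgr2b, and apart from the BNAP/GRP1 and GRP2/MP3 points of batches 1 and 2, at 20.1 to 54.8.

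The members were set beside 16 microglia markers. Their sum was 222 to 6316 RPKM in BNAP/GRP1 and 908 to 5278 in GRP2/MP3 of batches 1, 2 and 4, 61.7 to 107 in NSC, 33.5 to 56.5 in GRP3, 28.9 to 140.3 in PFMP and 1867 to 2149 in batch 3, with at most 1 marker at 0 in any library. The markers that define microglia were nearly absent in batch 3, however. P2ry12, a purine receptor of resting microglia, was at 0.915 to 1.49 RPKM in batch 3 and at 64.7 to 1101 in BNAP/GRP1 and GRP2/MP3 of batches 1 and 2, and Tmem119 at 0.687 to 1.10 against 23.1 to 91.3. Sall1, the transcription factor of microglial identity, was at 0 to 0.385 RPKM in batch 3. Cd68, a lysosomal protein of all macrophages, was at 949.7 to 1128 RPKM in batch 3 and at 167 to 1058 in the 4 libraries. Across the 15 libraries without batch 3, Pearson's r between a member and the mean log2 level of the microglia markers was 0.99 for Fcgr3, 0.95 for Tyrobp and Trem2, 0.94 for Fcer1g and Plcg2, 0.92 for Fcgr1, 0.74 for Fcgr2b and 0.72 for Syk. Over all 20 libraries it was 0.46 to 0.88, lowest for Syk and Fcgr2b. The points share populations, batches and library scaling, so these values are descriptions only. Relative to the marker mean of its own library, Fcgr2b was 3.26 to 3.46 higher on the log2 scale in batch 3 and 2.47 to 4.24 lower in BNAP/GRP1 and GRP2/MP3 of batches 1 and 2. Syk was 1.81 to 2.01 above that mean in batch 3 and 3.62 to 4.54 below it in the 4 libraries. On that scale batch 3 lay above all 15 other libraries for Fcgr2b, Fcgr3, Tyrobp, Trem2, Syk and Plcg2, 6 of 8 members against 2.43% of genes, and not for Fcer1g and Fcgr1. The summed border macrophage markers stood high in the same populations, at 177 to 828 RPKM in BNAP/GRP1 and 226 to 3715 in GRP2/MP3 of batches 1, 2 and 4, against at most 99.9 in the others. Most of the BNAP/GRP1 sum was Stab1, at 701, 111 and 156 RPKM. In BNAP/GRP1 1 and 2 only Stab1 and Pf4 lay above every NSC, GRP3 and PFMP library of these batches in both. Cd163 was at 0.127 and 0.0233 RPKM there, Lyve1 at 0.926 and 0.558 and F13a1 at 1.62 and 0.162. The pericyte markers also moved with GRP2/MP3, at 448 to 7337 RPKM in batches 1, 2 and 4 against at most 192 in the other populations of those batches. The part of these cell types in the level of a member was not tested.

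**Figure D5:**
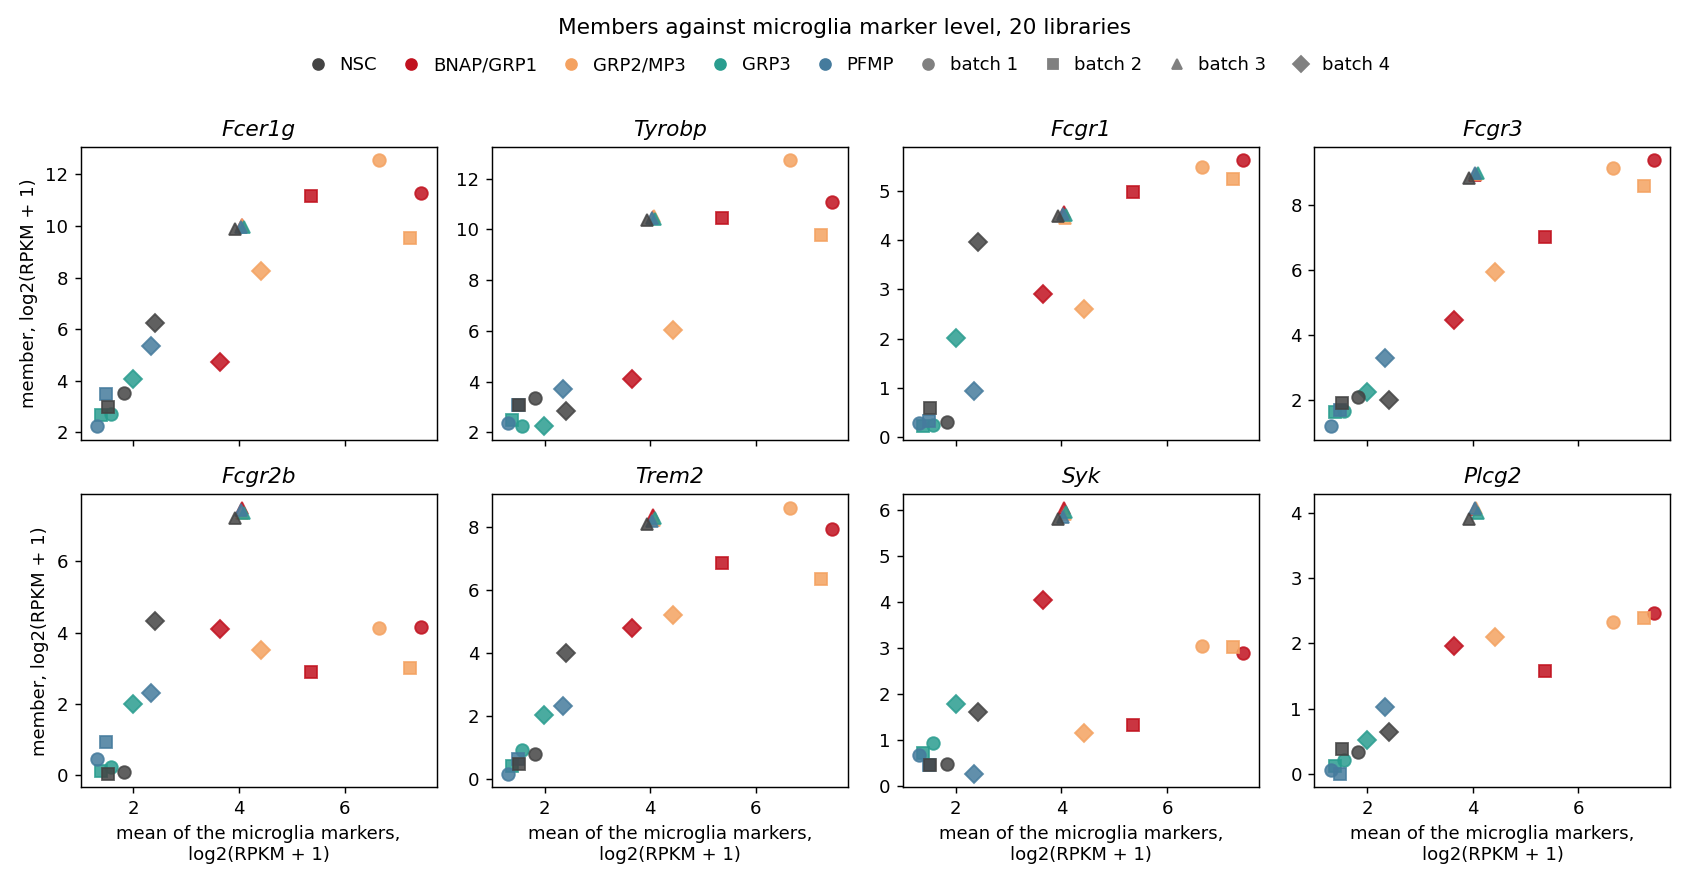
Level of each of the 8 genes against the mean level of 16 microglia markers, both as log2(RPKM + 1), with 1 point per library, color by population and shape by batch. The triangles of batch 3 lie together in each panel, above the level of the other points at the same marker mean for Fcgr2b, Fcgr3, Tyrobp, Trem2, Syk and Plcg2, and the correlation without them was 0.99 for Fcgr3.

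The members rose and fell together. Over the 28 pairs of members, Pearson's r of log2(RPKM + 1) across 20 libraries ran from 0.67 to 0.98 with a median of 0.90, and without batch 3 from 0.57 to 0.97 with a median of 0.86. The genes outside the set most like each member over 20 libraries included many of the immune system. For Tyrobp they were Csf1r, the receptor that keeps microglia alive (r = 0.99), and the complement genes C1qa and C1qc (both 0.99). For Fcgr3 they were Vav1, C1qa and Cd86 (all 0.99), for Fcer1g C1qa, C1qb and Ccl6 (0.96 to 0.97), and for Trem2 Ccl6, Bin2 and Cd52 (all 0.98). Fcgr1 was most like Hk2, Lair1 and Pik3cg (0.95 to 0.97) and Fcgr2b most like Tlr13, Pilra and Dok2 (0.97 to 0.98). Syk stood with Csf2rb2, Cytip and Cyp4f18 (all 0.99). Plcg2, which B cells also use, stood with the immunoglobulin gene Ighm, Igsf6 and the B cell receptor chain Cd79b (all 0.99). Ighm averaged 822 RPKM in batch 3 and 12.9 elsewhere, and C1qa 565 and 208. These r values share the populations, batches and scaling of the same libraries and are descriptions only.

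A further 111 genes of the pathway in 7 lists, of which 106 were in the table and 100 were tested, were read from the same fit. Without a batch term, 0 were called in BNAP/GRP1, GRP2/MP3 and GRP3 against NSC by limma, with 8, 13 and 2 of the 100 higher at an unadjusted p under 0.05 (1.87%, 0.873% and 1.26% of all genes) and 2, 3 and 3 lower (4.03%, 4.92% and 4.36% of all genes). In PFMP 1 was called, Prkcb, a protein kinase C that acts after PLCG2, and it was the single gene of all those tested called higher there. At an unadjusted p under 0.05, 2 were higher (0.793% of all genes) and 2 lower (5.08%) in PFMP. Prkcb was at 53.2, 88.8, 26.3 and 63.6 RPKM in PFMP 1 to 4 and at 4.01, 3.60, 24.3 and 10.6 in NSC, a log2 fold change of 2.58 ± 0.59 (limma adjusted p = 0.0307, and 0.0147 with the block). PFMP was the higher in each batch, by least in batch 3, and the count fell to 0 without PFMP 1, 2 or 4 or without NSC 1 or 2, and by the fit of only these 8 libraries. The rise was not particular to PFMP, since Prkcb was above NSC in each batch in the other progenitors too. It was at 69.6, 62.2, 25.2 and 34.3 RPKM in GRP3 1 to 4, 45.2, 23.7, 24.5 and 15.6 in BNAP/GRP1 and 19.9, 42.4, 27.6 and 38.2 in GRP2/MP3. In BNAP/GRP1 and GRP2/MP3 against GRP3 and PFMP, 0 pathway genes were called without a batch term, where 0% of all genes were called higher. At an unadjusted p under 0.05, 25 of the 100 were higher (2.8% of all genes) and 1 lower. With the block 0 fell and 25 rose, where 0.999% of all genes were called higher. They were 3 of 10 other Fc receptors, 3 of 15 other receptors that pair with TYROBP or FCER1G, 2 of 9 other ITAM chains, 1 of 13 Src family and SYK-related kinases, 9 of 24 adaptors and effectors after SYK, 6 of 24 inhibitory receptors and phosphatases, and 1 of 5 ligands of TREM2 and CSF1R. The list medians were 0.46 to 2.00 on the log2 scale, against 0.22 over all genes tested and 3.47 over the 8 members.

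The highest gene by mean RPKM of each list without a called gene is described next. Fcrls, an Fc receptor-like gene that also serves as a microglia marker, was at 78.6 to 517 RPKM in BNAP/GRP1 and GRP2/MP3 of batches 1 and 2 and at 1.21 to 2.46 in batch 3, where Fcgr2b had its peak. Fcrls rose by 3.81 ± 0.86 in the comparison of the 2 sides with the block (limma adjusted p = 0.0415). Clec4e, a receptor for microbial and dying-cell products that signals through FCER1G, was at 1053 to 1200.2 RPKM in batch 3 and at 0.00385 to 11.2 in the other 15 libraries. Cd79b, an ITAM chain of the B cell receptor, was at 220 to 240.3 RPKM in batch 3 and at 0 to 39.5 elsewhere. Sirpa, an inhibitory receptor, was at 217 to 240.4 RPKM in batch 3 and at 80.5 to 255 in BNAP/GRP1 and GRP2/MP3 of batches 1 and 2. Apoe, a lipoprotein and ligand of TREM2, was high in nearly every library, at 37.1 to 10929.8 RPKM. Fyn, a Src family kinase also used by oligodendrocyte progenitors, ran the other way, at 43.5 to 153 RPKM in GRP3 and PFMP and 10.1 to 66.9 in BNAP/GRP1 and GRP2/MP3 of batches 1, 2 and 4. In batch 3, 73 of the 100 pathway genes were higher and 5 lower than in the other batches, against the 12.5% and 22.6% of all genes given above. The libraries of batch 3 suffice to pass the filter of 1 RPKM in 4 libraries, so a gene high only there was tested. Fcmr, for example, reached 1 RPKM outside batch 3 only in BNAP/GRP1 4, GRP3 4 and NSC 4. The count of 73 is therefore a description only.

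Promoter windows (250 bases before to 50 after the start site, RefSeq, GRCm38.p6) were found for 7 of the 8 members, 9 windows in all, and Tyrobp was not among them. GAGGAA, the core letters bound by the myeloid transcription factor PU.1, was searched on both strands (TTCCTC on the other). It stood in 5 of the 9 windows, of the 4 members Fcgr3, Fcgr1, Syk and Trem2, against 28.3% of all 32851 windows. The 2 Fcgr3 windows overlap almost wholly and hold the same site, which is thus counted in both. The windows of the 2 receptors that were called in both BNAP/GRP1 and GRP2/MP3 without batch 3 are shown on the strand of the gene, with the match in capitals.
Fcgr3 (chr1:171059354-171059653, minus strand): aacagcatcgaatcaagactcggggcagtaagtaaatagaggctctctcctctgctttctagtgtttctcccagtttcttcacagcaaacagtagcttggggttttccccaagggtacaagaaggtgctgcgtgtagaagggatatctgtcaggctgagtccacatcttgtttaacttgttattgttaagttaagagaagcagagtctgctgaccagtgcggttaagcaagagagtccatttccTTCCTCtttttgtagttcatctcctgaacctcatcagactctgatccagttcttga
Trem2 (chr17:48346151-48346450, plus strand): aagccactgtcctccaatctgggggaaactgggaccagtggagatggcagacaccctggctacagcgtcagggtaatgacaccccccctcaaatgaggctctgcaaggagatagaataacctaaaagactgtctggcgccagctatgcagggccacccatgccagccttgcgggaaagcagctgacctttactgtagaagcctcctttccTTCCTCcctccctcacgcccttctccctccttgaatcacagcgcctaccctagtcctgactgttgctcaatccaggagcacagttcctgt
The match lay 6 bases before the start site in Fcgr3 and 40 before it in Trem2. A match is a description of letters and not a bound site.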

How the data were processed

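The authors deposited 1 table of RPKM for 45705 genes in 20 libraries. Per the submitters' processing notes and the study's methods, amplified polyadenylated RNA was sequenced on a NextSeq500, and the tools were cutadapt 3.4 for trimming, STAR 2.6.1 for alignment (GRCm38) and Salmon 1.9.0 for quantification. The read totals, gene lengths and annotation release behind the RPKM are not given in the sources used here, so the precision that depth gives each value is unknown. RPKM are not counts, and no count test was run. Of the table's columns, 26 without a name were empty and not used.

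The 27614 genes that reached 1 RPKM in 4 or more libraries were tested as log2(RPKM + 1) with limma 3.58.1 (R 4.3.3), 1 mean per population, a trended prior and Benjamini-Hochberg adjustment, with calls at an adjusted p under 0.05. The test was checked on simulated data with independent libraries and no batch effect. The batch structure of the real libraries lies outside that check. The study describes the 4 libraries of a population as independent experiments, each from pooled litters, and the labels name no animals. The fit without a batch term treats all 20 libraries as independent, although libraries of 1 batch are paired. Its p-values measure the spread between libraries of a population. Those of the fits with a batch term measure the spread left after batch differences are taken out.

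The labels give each library a batch, and the batch numbers pair the libraries. The median correlation of deviations from the population means was 0.337, 0.262, 0.769 and 0.581 within batches 1 to 4 and -0.204 between libraries of different batches and populations. The fit with the batch as a block is given wherever it changed a call. The alternatives were another pseudocount, filter, scaling, prior, library weighting or choice of libraries, and each library or batch left out.

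The members and all gene and marker lists were chosen with earlier results of these data known. Named beside the members were the 3 genes most like each by Pearson's r, pathway genes called against NSC (up to 5 per list), and otherwise the highest of each pathway list. Of the marker lists, those not given in full above summed as follows in batch 3. Border macrophage markers came to 1902 to 2254 RPKM, neutrophil markers summed to 163 to 196, mast cell and basophil markers to 301 to 352, lymphocyte markers to 417 to 449, platelet markers to 13.2 to 19.3 and endothelium markers to 5.93 to 12.5 RPKM. Coordinates and motifs are from GENCODE vM21 and promoters from RefSeq. Figures were drawn with matplotlib 3.10.9 (Python 3.11.15).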

Additional observations from a re-analysis of the deposited data

Results flagged for a closer look

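Of the 40 groups of 4 libraries formed by 8 members and 5 populations, 11 held a library far from the other 3 of its population, 10 of them a library of batch 3. The rule flags about 1 in 20 groups of independent, normally distributed values. These 40 groups hold raw RPKM of correlated genes in the same libraries, so the 11 cannot be weighed against that rate. In NSC 3 the flagged values were Fcgr3 at 448 RPKM, Tyrobp at 1320.3 and Plcg2 at 14.0. In GRP3 3 they were Fcgr3 at 499, Tyrobp at 1375 and Plcg2 at 15.01 RPKM. In PFMP 3 they were Fcgr1 at 22.1, Tyrobp at 1406 and Syk at 56.6 RPKM, and in GRP2/MP3 3 it was Plcg2 at 15.8 RPKM. Each of these stood above the other 3 libraries of its population. BNAP/GRP1 4, the shallowest library by the estimate from low values, stood below its own with Tyrobp at 16.0 RPKM. The gap to the nearest library was 0.835 to 0.977 of the range of the group.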

How the results depend on the processing

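The members were called or not called alike in every comparison with another pseudocount, filter, scaling or prior and with only the populations compared, except that 7 instead of 8 passed in batch 3 without a filter, and the other settings changed counts as follows. In BNAP/GRP1 against NSC, 0 members became 5 with library weights and 3 with the replicate block without batch 3. In GRP2/MP3 against NSC, 0 became 5 with weights, 1 with the block and 4 with the block without batch 3. In BNAP/GRP1 and GRP2/MP3 against GRP3 and PFMP, 0 became 6, 7 and 7 under the same settings. BNAP/GRP1 against GRP3 gave 7 with weights, GRP2/MP3 against GRP3 gave 6 with weights and 3 with the block without batch 3, and GRP2/MP3 against PFMP gave 2 with the latter. The block changed no other call of a member against NSC or between the sides. With 1 library or batch left out, members called ran from 0 to 2 in BNAP/GRP1 against NSC, 0 to 3 in GRP2/MP3 against NSC, 0 to 6 in the comparison of the 2 sides and 6 to 8 in batch 3, and the highest counts against NSC and between the sides were those without batch 3. The block without batch 3 was chosen after seeing the data.

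Of the 100 pathway genes, library weights called 31 in BNAP/GRP1 against NSC (28 higher and 3 lower, where 2.52% and 6.97% of all genes were), 22 in GRP2/MP3 (19 and 3, against 1.21% and 5.76%), 13 in GRP3 (6 and 7, against 9.13% and 8.56%) and 3 in PFMP (2 and 1, against 0.326% and 4.9%). The block called 1 in BNAP/GRP1 (lower), 5 in GRP2/MP3 (3 higher), 4 in GRP3 (1 higher) and 3 in PFMP (1 higher), where 0.0652% to 0.275% of all genes were called higher and 2.02% to 2.91% lower. The block without batch 3 called 8 (7 higher), 13 (12 higher), 3 (1 higher) and 3 (1 higher), against 0.308% to 0.604% higher and 1.59% to 2.37% lower. Quantile normalization called 1 in GRP2/MP3 and 1 in GRP3, the stricter filter (a mean of at least 5 RPKM) 1 in GRP3, and the fit of only the populations compared 0 in PFMP. With 1 library or batch left out the counts were 0 to 4, 0 to 8, 0 to 2 and 0 to 2.

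Quantile normalization moved the median of all genes in BNAP/GRP1 against NSC from 0.38 to 0.03 on the log2 scale and that of the members from 2.90 to 2.38. Fold changes near 0 in GRP3 and PFMP changed sign in 73 of all values, none of them called. In PFMP against NSC, library weights gave 0.68 for Fcer1g, 0.16 for Fcgr1, 1.27 for Fcgr2b, 0.40 for Tyrobp, 0.67 for Trem2, 0.32 for Syk and 0.25 for Plcg2. A pseudocount of 0.1 gave 0.63 for Fcgr2b, median-of-ratios scaling 0.0038 for Tyrobp and 0.027 for Plcg2, and quantile normalization 0.16 for Tyrobp, 0.13 for Syk and 0.22 for Plcg2. In GRP3 against NSC, library weights gave -0.10 for Syk. With libraries left out, the values in GRP3 against NSC ran from -2.52 to 0.59 for Fcer1g, -1.52 to 0.12 for Fcgr1, -2.14 to 0.94 for Fcgr2b, -1.86 to 1.63 for Fcgr3, -2.59 to 1.25 for Tyrobp, -2.22 to 1.15 for Trem2, -0.94 to 1.505 for Syk and -1.03 to 0.76 for Plcg2. In PFMP they ran from -1.97 to 1.00 for Fcer1g, -1.68 to 1.30 for Fcgr2b, -1.64 to 1.80 for Fcgr3, -1.86 to 1.81 for Tyrobp, -2.31 to 1.06 for Trem2, -1.62 to 0.97 for Syk and -0.95 to 0.84 for Plcg2. Among these, GRP3 without batch 1 gave 0.035 for Fcgr3 and without batch 4 gave 0.070 for Trem2 and 0.12 for Fcgr2b. PFMP without batch 4 gave 0.50 for Fcgr2b, -0.31 for Fcgr3 and 0.083 for Syk, without batch 1 it gave 0.31 for Tyrobp and 0.058 for Plcg2, and without batch 2 it gave 0.097 for Plcg2. The causes were not tested.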
